A study of Homo sapiens with 42 samples.

Results

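Of the 42 libraries of the series, 6 addressed what medium from bone marrow stromal cells does to gene expression while FLT3 and mTORC1 are inhibited together. They are the input RNA of MOLM-13 cells that were treated for 12 hours with 3 nM quizartinib (AC220), an inhibitor of the receptor tyrosine kinase FLT3, and 10 nM everolimus, an inhibitor of mTORC1. Of these cultures 3 were kept in hBMSC-CM and 3 in RPMI, and the members were chosen by the labels for medium, drugs and RNA fraction alone. MOLM-13 is an acute myeloid leukemia (AML) cell line with an internal tandem duplication of FLT3 (FLT3-ITD), and the labels give its genotype as WT. RPMI here is the standard culture medium with fetal bovine serum, and hBMSC-CM is a mixture of that medium with medium conditioned by HS-5, a human bone marrow stromal cell line. The treatment with both drugs is called combo. All groups thus rest on 1 leukemia line and 1 stromal line, and the 42 libraries include no RPMI culture with everolimus alone. The other comparisons used here are the same change of medium under 3 nM quizartinib alone and under vehicle, with 3 cultures in each group, and the heavy polysome RNA of the combo cultures, which holds messages loaded with several ribosomes.

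FLT3 is a growth factor receptor of early blood cells, and its ITD form signals without ligand through STAT5, through the RAS and ERK cascade and through PI3K, AKT and mTORC1. Cytokines of the marrow bind other receptors, whose associated JAK kinases phosphorylate STAT proteins. STAT dimers then bind DNA and switch on genes such as the SOCS family and CISH, which damp the same receptors, and the PIM kinases, which favour survival and growth. ERK signaling switches on early transcription factors (FOS, EGR1) together with its own brakes, the DUSP phosphatases and the Sprouty and SPRED proteins, and growth signals converge on MYC, a transcription factor that drives ribosome building.

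The 6 libraries held 26.1 to 32.0 M (megacounts), within the range of 19.4 to 38.8 M over all 42. A gene had a count in 20376 to 21475 names per library in hBMSC-CM and in 18824 to 19577 in RPMI, and these ranges did not overlap. Mitochondrially encoded transcripts took 3.93% to 7.57% of counts in hBMSC-CM and 4.89% to 10.2% in RPMI, and replicate 1 was highest in each medium. Whether these differences bear on the results was not tested. Markers of the labelled cell type were present: 11 of 12 markers of a monocytic AML line passed the expression filter, their summed level was 3140 to 3710 CPM in hBMSC-CM and 2550 to 3140 CPM in RPMI, and 1 of the 11, FLT3, changed. CD68, the remaining marker, had 5 to 32 counts per library. Of 14 bone marrow stroma markers 5 had no count in all 6 libraries (COL3A1, LUM, POSTN, THY1 and CXCL12), and the summed level was 19.2 to 43.3 CPM in hBMSC-CM against 20.6 to 52.6 CPM in RPMI. None of the 3 stroma markers that could be tested changed. Values are in CPM, counts scaled to a common library total by TMM factors, measure each gene's share of its library, and compare libraries, not genes of unequal length. The labels say no more of a replicate than its number, so a p-value measures the spread between samples. That spread was estimated over all 42 libraries of the series, not over these 6 alone.

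Under both drugs 693 of 12939 genes tested (5.36%) differed between the media at an edgeR adjusted p under 0.05, 532 higher (4.11%) and 161 lower (1.24%) in hBMSC-CM. At least a 2-fold change was fitted for 407 of the higher and 99 of the lower genes, and at least a 4-fold change for 146 and 22. The median change over all genes was −0.03 on the log2 scale. Values of the media did not overlap for 21.5% of genes, 11.3% higher and 10.1% lower. When a term for the replicate number was added within each fraction, 1372 genes were called, and with input libraries alone 1158 were. With a replicate block over all libraries 1002 of 12939 genes were called, 723 higher and 279 lower. List counts given below with a replicate block are to be read against these, not against the shares above. Among genes averaging at least 10 CPM whose values did not overlap, the 14 largest rises were FPR1, SOCS3, LILRB3, PIM1, OSM, S100A9, EGR1, IER3, SLC2A3, PIM2, ETV5, SEMA6B, ADGRG3 and HP. The 10 largest falls by the same rule were DPYSL3, PLD4, FLT3, NREP, MYBPH, SOX13, SHANK1, RHOBTB2, PYCR1 and KLHL30. The fitted log2 changes of the rises were 3.2 to 7.30, and those of the falls lay between −2.89 and −1.64.

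**Figure D1:**
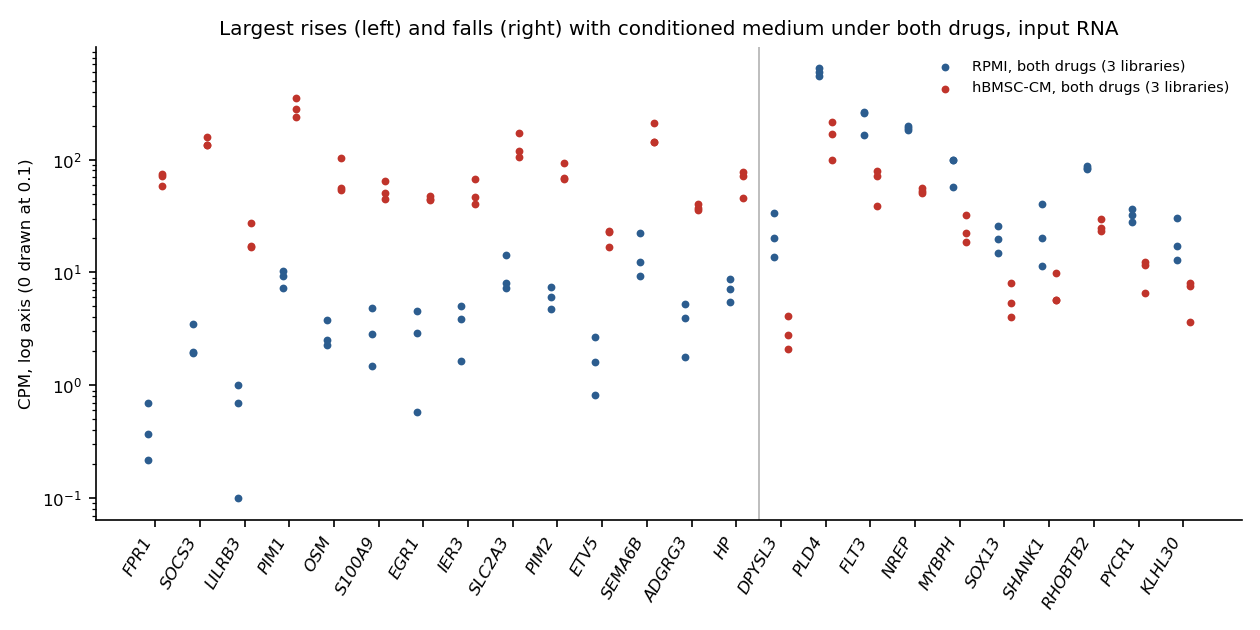
Level of the 14 largest rises and 10 largest falls in each of the 6 combo input libraries. The vertical axis is the level in CPM on a log scale, genes are along the horizontal axis, each point is a library, colours mark the medium, and a level of 0 is drawn at 0.1. By the naming rule no gene's points of one medium overlap those of the other, and FPR1 lay at 58.5 to 74.5 CPM in hBMSC-CM against 0.22 to 0.696 CPM in RPMI.

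The JAK-STAT group showed one of the largest shares of called members. Of 26 tested STAT targets and feedback genes 14 rose (53.8%, against 4.11% of all genes) and 0 fell, and the median log2 change of the list was 0.61. SOCS3, a feedback inhibitor of receptors that signal through gp130, lies on chromosome 17 (ENSG00000184557, 78356778 to 78360077, minus strand, GRCh38). It reached 135, 134 and 158 CPM in the 3 hBMSC-CM libraries and 1.92, 3.46 and 1.99 CPM in RPMI, a 57.5-fold rise (log2 change 5.85, SE 0.29, edgeR adjusted p 5.27e-17). All hBMSC-CM libraries lay far above all RPMI libraries. The serine/threonine kinase gene PIM1 (ENSG00000137193, chromosome 6, 37170152 to 37175428, plus strand) was at 278, 240 and 353 CPM in hBMSC-CM and at 9.26, 7.27 and 10.3 CPM in RPMI. This rise was 32.4-fold (log2 change 5.02, SE 0.27, edgeR adjusted p 4.50e-16). PIM2, a related kinase, rose 12.5-fold, from 4.71, 6.04 and 7.5 CPM in RPMI to 68.0, 67.1 and 93.4 CPM (log2 change 3.65, SE 0.27, edgeR adjusted p 5.11e-12), and PIM3 rose by 1.48 on the log2 scale. The PIM genes therefore moved in the same direction, with no overlap between media for PIM1, PIM2 or PIM3.

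CISH, a STAT5 target that damps cytokine receptors, was at 88.5, 70.5 and 96.3 CPM in hBMSC-CM and at 20.9, 18.6 and 25.7 CPM in RPMI. It rose 3.92-fold (log2 change 1.97, SE 0.16, edgeR adjusted p 4.25e-11) without overlap. SOCS1, of the same feedback family, rose from 4.24, 2.98 and 4.05 CPM to 11, 8.06 and 10.5 CPM (log2 change 1.39, SE 0.30, edgeR adjusted p 0.0021). SOCS2 did not pass the test, at 167, 147 and 141 CPM in hBMSC-CM against 227, 189 and 209 CPM in RPMI (a log2 change of −0.46, edgeR adjusted p 0.285). With a replicate block within each fraction its adjusted p was 0.0251 (0.0251 to 0.696 over all alternatives), and its values did not overlap. The cytokine gene OSM, whose product signals through gp130, is itself a STAT5 target. It rose 24.7-fold, from 2.51, 2.29 and 3.80 CPM to 53.7, 55.8 and 103 CPM (log2 change 4.63, SE 0.46, edgeR adjusted p 3.83e-09). JAK3, the kinase bound to the common gamma chain, was at 61.5, 69.4 and 68.0 CPM against 13.3, 14.3 and 9.78 CPM and rose by 2.41 (edgeR adjusted p 2.67e-08). The repressor BCL6 rose by 1.84 (edgeR adjusted p 0.000426), and the transcription factor BATF3, at most 1.01 CPM in the 6 libraries, by 4.17 (7.58 without RPMI replicate 2).

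A further 4 members rose less, STAT3 by 1.03, LRP8 by 1.03, IRF1 by 0.61 and CCND2, a cyclin, by 0.53. These calls were not stable to single libraries. CCND2 lost its call when any 1 of the 6 libraries was left out, and STAT3 did so without RPMI replicate 2 or 3 or hBMSC-CM replicate 1 or 2. IRF1, an interferon regulatory factor, lost its call without RPMI replicate 1 or 2, and LRP8, a lipoprotein receptor, without hBMSC-CM replicate 2.

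To show the DNA at the start of genes of this kind, 3 promoters are printed from the RefSeq table of GRCh38.p14, as the 250 bases before the annotated start, 5′ to 3′ on the gene's strand. The letters TTCNNNGAA, the core recognised by STAT dimers, were searched on both strands, and matches are in capitals. CISH (chr3:50611775-50612024, minus strand) is shown because it held the most matches within this window among the 11 called JAK-STAT genes whose promoters could be searched. They lie at −241 to −233, −230 to −222, −129 to −121 and −112 to −104 from the start. EGR1 (chr5:138465229-138465478, plus strand) held 1 match, at −228 to −220. PIM1 (chr6:37169902-37170151, plus strand) rose more than CISH and held none.
CISH: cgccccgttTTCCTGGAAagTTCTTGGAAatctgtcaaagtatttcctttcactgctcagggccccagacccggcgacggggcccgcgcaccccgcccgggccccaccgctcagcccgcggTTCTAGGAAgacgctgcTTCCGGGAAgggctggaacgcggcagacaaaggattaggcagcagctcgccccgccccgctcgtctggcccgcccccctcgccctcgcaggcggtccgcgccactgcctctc
EGR1: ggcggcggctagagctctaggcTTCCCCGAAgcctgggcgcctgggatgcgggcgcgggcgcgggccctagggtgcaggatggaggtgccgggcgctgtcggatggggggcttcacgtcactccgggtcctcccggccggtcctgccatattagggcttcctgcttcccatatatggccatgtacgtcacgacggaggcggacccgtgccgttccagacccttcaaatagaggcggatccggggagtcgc
PIM1: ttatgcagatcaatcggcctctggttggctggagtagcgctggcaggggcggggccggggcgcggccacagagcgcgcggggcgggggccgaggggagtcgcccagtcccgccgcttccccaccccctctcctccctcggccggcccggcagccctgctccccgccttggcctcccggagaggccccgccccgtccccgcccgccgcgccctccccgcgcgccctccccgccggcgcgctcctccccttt
The table held 13 promoters of 11 of the 14 called JAK-STAT genes, and 3 of the 13 held the letters (23.1%; 1 each of CISH, BCL6 and IRF1), against 7.66% of 35116 promoters, all counted over 250 bases before to 50 after the start. Of the 14 largest rises 7 were found, with 8 promoters, of which 1, that of EGR1, held them. SOCS3, counted in both groups without a match, has its promoters at chr17:78360926-78361175 and chr17:78359668-78359917. Neither holds the bases just before the SOCS3 start given above, so these bases were not searched. The AP-1 letters TGANTCA were in 7.71% of all promoters, in 1 of the 13 JAK-STAT promoters (BCL6) and in 1 of the 8 of the largest rises (FPR1). The E-box CACGTG was in 7.26% of all promoters and in 0 of either group. A match describes letters only, and its absence says nothing of a factor that binds elsewhere.

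The ERK feedback group also held rises and no falls. Of 17 tested members 10 rose (58.8%, against 4.11% of all genes) and 0 fell, with a median log2 change of 2.14. With only the 6 compared libraries in the fit 6 were called. ETV5, an ETS factor downstream of ERK, rose 12.4-fold, from 0.816, 1.60 and 2.69 CPM to 16.9, 22.8 and 23.4 CPM (log2 change 3.63, SE 0.43, edgeR adjusted p 1.58e-07). Its exons overlap those of DGKG on the same strand. IER3, an early response gene, rose by 3.87. ETV4, a factor related to ETV5, rose by 3.30, which was 5.16 without RPMI replicate 1, and lost its call with only the 6 compared libraries in the fit (adjusted p 0.0729). The brakes of the cascade rose as well. SPRED2 went from 5.24, 3.83 and 4.30 CPM to 22.6, 19.7 and 16.7 CPM (log2 change 2.14, SE 0.30, edgeR adjusted p 3.94e-06). SPRY2, a Sprouty gene, went from 2.13, 0.825 and 1.14 CPM to 9.16, 8.74 and 4.45 CPM (log2 change 2.45, SE 0.41, edgeR adjusted p 7.65e-05). SPRED1 rose by 2.00 and PHLDA1 by 2.29, and none of these genes had values that overlapped between media.

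The phosphatase gene DUSP6 had a wide spread. It was at 34.6, 37.8 and 77.9 CPM in hBMSC-CM and at 2.98, 3.86 and 20.4 CPM in RPMI, and replicate 3 was highest in each medium. Its log2 change was 2.47 (SE 0.71, edgeR adjusted p 0.0293). The call was lost without RPMI replicate 1 or 2 or hBMSC-CM replicate 3, and with only these 6 libraries in the fit, and over all alternatives the adjusted p was 1.08e-15 to 0.203. Without RPMI replicate 3 the change was 3.88. DUSP5, another phosphatase, rose by 2.6 and KCNN4, a potassium channel, by 1.09, calls that were lost without RPMI replicate 3 or hBMSC-CM replicate 3 (DUSP5) and without RPMI replicate 1 or 2 or hBMSC-CM replicate 3 (KCNN4).

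Of 22 AP-1 and EGR genes 7 rose (31.8%, against 4.11% of all genes) and 0 fell (median 0.58). Without hBMSC-CM replicate 3 or without RPMI replicate 2, 5 were called higher. The immediate early gene EGR1 was at 43.4, 47.5 and 44.5 CPM in hBMSC-CM and at 2.92, 0.586 and 4.52 CPM in RPMI, a 17.0-fold rise (log2 change 4.08, SE 0.59, edgeR adjusted p 6.41e-06). JUNB was at 218, 263 and 324 CPM against 83.0, 100 and 101 CPM in RPMI (a log2 change of 1.5 with SE 0.21, edgeR adjusted p 2.84e-06). FOS rose from 25.7, 27.3 and 21.4 CPM to 50.7, 74.5 and 45.5 CPM (log2 change 1.2, SE 0.25, edgeR adjusted p 0.00127). FOSL1 rose by 3.28 (SE 0.61), with 0.0628, 1.17 and 1.61 CPM in RPMI and 4.93, 6.05 and 17.0 CPM in hBMSC-CM. Values of EGR1, JUNB, FOS and FOSL1 did not overlap, though hBMSC-CM replicate 3 of FOSL1 stood well above the other libraries.

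MYC was at 274, 291 and 310 CPM in hBMSC-CM and at 29.0, 27.4 and 43.1 CPM in RPMI, an 8.78-fold difference (log2 change 3.13, SE 0.32, edgeR adjusted p 6.93e-09). Part of its exons overlap those of CASC11 on the other strand, and no source states that reads were counted by strand. The same holds for CISH, which overlaps MAPKAPK3, and for SOCS2, THBS1, IER3, MCL1, DUSP6, JUNB, BCL6, ICAM1, BMF, SLC7A5, PYCR1, NREP, PLD4 and SHANK1 with other neighbours. Among the input groups, MYC averaged 490 ± 75.2 CPM under vehicle in RPMI and 476 ± 113 CPM under vehicle in hBMSC-CM (SD, n = 3 each). Under quizartinib it was 42.7 ± 11.8 CPM in RPMI and 377 ± 64.8 CPM in hBMSC-CM. The RPMI cultures that received quizartinib, alone or with everolimus, had the lowest means. The hBMSC-CM means under quizartinib and under both drugs (292 ± 17.8 CPM) lay between those and the vehicle means.

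A list of MYC-associated genes, most of them of ribosome biogenesis, includes MYC itself. Of its 61 tested members 10 rose (16.4%, against 4.11% of all genes) and 0 fell, the median log2 change was 0.43, and 54 had a positive change. The 10 were MYC, the lactate dehydrogenase gene LDHA, the coactivator gene PPRC1 and ribosome biogenesis genes. The count depended on single libraries: 5 were called without hBMSC-CM replicate 3, where NOP16, RRP12, RRS1, WDR43 and PPRC1 lost their calls, and 6 without hBMSC-CM replicate 2, RPMI replicate 2 or RPMI replicate 3. With a replicate block 16 were called higher, against 723 of all 12939 genes. Values of the media did not overlap, with hBMSC-CM higher, for 28 of the 61, against 11.3% of all genes. DDX21, an RNA helicase of rRNA processing, rose from 13.3, 18.0 and 12.2 CPM to 33.6, 50.8 and 27.2 CPM (log2 change 1.36, SE 0.29, edgeR adjusted p 0.00191). BYSL, which acts in small subunit assembly, rose from 10.7, 12.9 and 15.8 CPM to 19.3, 27.2 and 36.8 CPM (log2 change 1.08, SE 0.21, edgeR adjusted p 0.000558). The coactivator PPRC1 rose by 1.34. Under quizartinib alone 38 of the 61 members rose, against 6.11% of all genes, with a median of 1.03. Under vehicle 0 were called, against 1.51% of all genes, with a median of −0.33. No member, and no gene at all, passed the test of the difference between combo and quizartinib, and the list median of that difference was −0.485. In the difference between combo and vehicle 5 members were higher (0.541% of all genes were). Among 54 DNA replication genes 4 rose (7.41%; MCM4, FEN1, RRM2 and CCNE1, by 0.76 to 1.10) and the median was 0.34, and with a replicate block 9 were called. The call of MCM4 was lost without hBMSC-CM replicate 2, that of FEN1 without RPMI replicate 1 or 3 or hBMSC-CM replicate 2, and that of RRM2 without RPMI replicate 2 or 3 or hBMSC-CM replicate 1. CCNE1 kept its call only without hBMSC-CM replicate 1. Of 49 mitosis genes 0 were called, against 5.36% of all genes, and the median was −0.01.

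**Figure D2:**
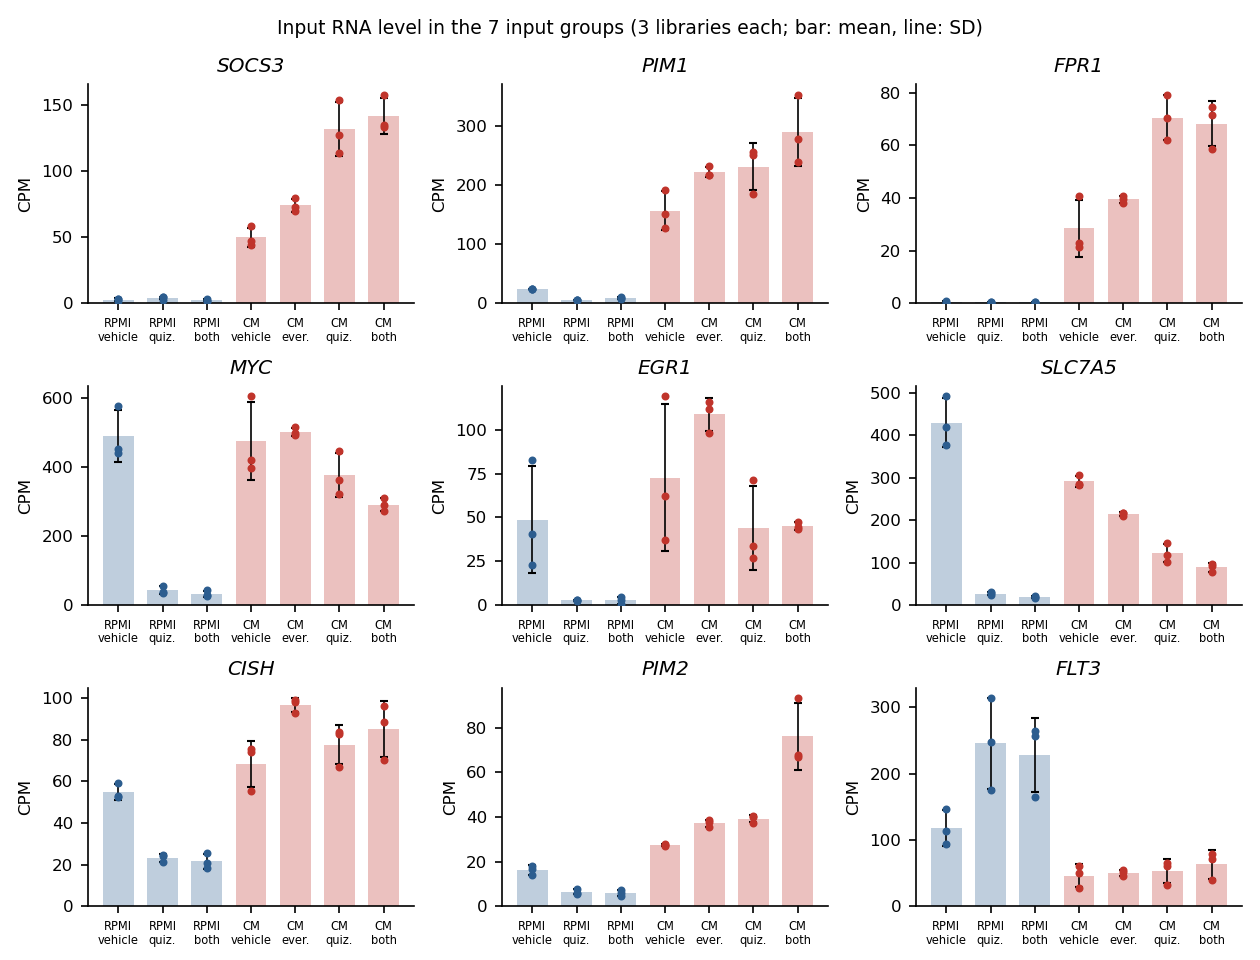
Levels of 9 genes in the 7 groups of input libraries. The vertical axis is CPM, points are single libraries, and bars with whiskers give the mean and SD of 3 libraries. The means of SOCS3, PIM1 and FPR1 were higher in every hBMSC-CM group than in every RPMI group, and the lowest means of MYC, EGR1 and SLC7A5 were those of RPMI under quizartinib and under both drugs.

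Amino acid transport and the ATF4 group followed. Of 42 members 6 rose (14.3%, against 4.11% of all genes) and 0 fell, with a median of 0.19. With a replicate block 7 were called higher and 1 lower. SLC7A5, the light chain of the leucine transporter, was at 76.8, 91.4 and 97.0 CPM in hBMSC-CM against 16.4, 19.1 and 20.8 CPM in RPMI, a 4.71-fold rise (log2 change 2.23, SE 0.25, edgeR adjusted p 3.80e-08). Its mean was 430 ± 58.3 CPM under vehicle in RPMI and 292 ± 12.0 CPM under vehicle in hBMSC-CM, above both combo groups (SD, n = 3 each). The arginine and lysine transporter gene SLC7A1 rose by 1.89, the folate enzyme MTHFD2 by 1.39 and the mTORC1 inhibitor DDIT4 by 2.56. DDIT4 went from 28.2, 31.0 and 33.3 CPM to 155, 143 and 245 CPM. The proline synthesis gene PYCR1 is one of the 10 largest falls and was not written into this list, so the 0 falls do not count it. It was at 6.52, 11.6 and 12.4 CPM in hBMSC-CM against 28.1, 36.4 and 32.2 CPM in RPMI, a fall by 1.67 in log2 units with SE 0.26 (edgeR adjusted p 2.02e-05). With quizartinib alone its change was −0.59 (edgeR adjusted p 0.172), and the difference between the treatments did not pass the test.

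Receptors of mature myeloid cells were among the genes that rose. Of 30 chemoattractant and pattern receptors 11 rose (36.7%, against 4.11% of all genes) and 1 fell (3.33%, against 1.24%), with a median of 0.88. Without hBMSC-CM replicate 2, where C5AR1, C5AR2, TLR2 and LY96 lost their calls, 7 were called higher. FPR1, the receptor of bacterial formyl peptides (ENSG00000171051, chromosome 19, 51745172 to 51804115, minus strand), had the largest rise by the naming rule. It was at 58.5, 74.5 and 71.5 CPM in hBMSC-CM and at 0.22, 0.373 and 0.696 CPM in RPMI (a log2 change of 7.30 with SE 0.50, edgeR adjusted p 5.53e-13). The endotoxin receptor gene TLR4 rose from 17.8, 22.1 and 17.7 CPM to 76.4, 67.7 and 56.5 CPM (log2 change 1.80, SE 0.23, edgeR adjusted p 9.99e-07). LTB4R, the receptor of leukotriene B4, rose by 1.57 and TREM1, an amplifier of inflammation, by 4.10. CXCR2, a receptor of interleukin 8, was the member that fell, with 8.66, 10.8 and 6.36 CPM in hBMSC-CM and 18.3, 20.3 and 17.9 CPM in RPMI (a log2 change of −1.13, edgeR adjusted p 0.00112).

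Fc, complement and scavenger receptors rose in 12 of 31 cases (38.7%, against 4.11% of all genes) and fell in 0 (median 0.55). LILRB3, an inhibitory receptor, was at 16.7, 17.0 and 27.2 CPM in hBMSC-CM and at 0, 1.01 and 0.696 CPM in RPMI (a log2 change of 5.13 with SE 0.64, edgeR adjusted p 5.82e-07). The lectin SIGLEC7 rose by 3.48, SIRPB1 by 1.54 and CD93 by 1.23, and the Fc gamma receptor gene FCGR2A by 1.94. LILRB and SIGLEC genes have closely related copies, so reads may have been split or lost among them. Of 38 granule and phagocyte effector genes 9 rose (23.7%) and 0 fell (median 0.32). S100A9, a subunit of calprotectin, rose 17.4-fold, from 1.48, 2.85 and 4.87 CPM to 44.5, 50.8 and 64.9 CPM (log2 change 4.12, SE 0.41, edgeR adjusted p 5.35e-09). CYBB, a subunit of the NADPH oxidase, rose by 1.75 and was at 39.7, 86.3 and 82.3 CPM against 13.4, 21.6 and 27.2 CPM.

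Transcription factors of the myeloid lineage were mixed. Of 36 tested 9 rose (25%, against 4.11% of all genes) and 2 fell (5.56%, against 1.24%), with a median of 0.25. CEBPB, which drives monocyte and granulocyte programs, rose from 26.4, 32.8 and 29.1 CPM to 91.2, 98.5 and 124 CPM (log2 change 1.83, SE 0.20, edgeR adjusted p 3.60e-08). RUNX3 rose by 1.49 and the inhibitor of differentiation ID1 by 2.38. The members that fell were IRF8, which directs monocyte and dendritic cell fate, by 0.80 and IRF5 by 0.96. IRF8 was at 103, 178 and 112 CPM against 197, 274 and 215 CPM. The IRF8 and IRF5 calls were each lost without hBMSC-CM replicate 1 or 3 or RPMI replicate 2.

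**Figure D3:**
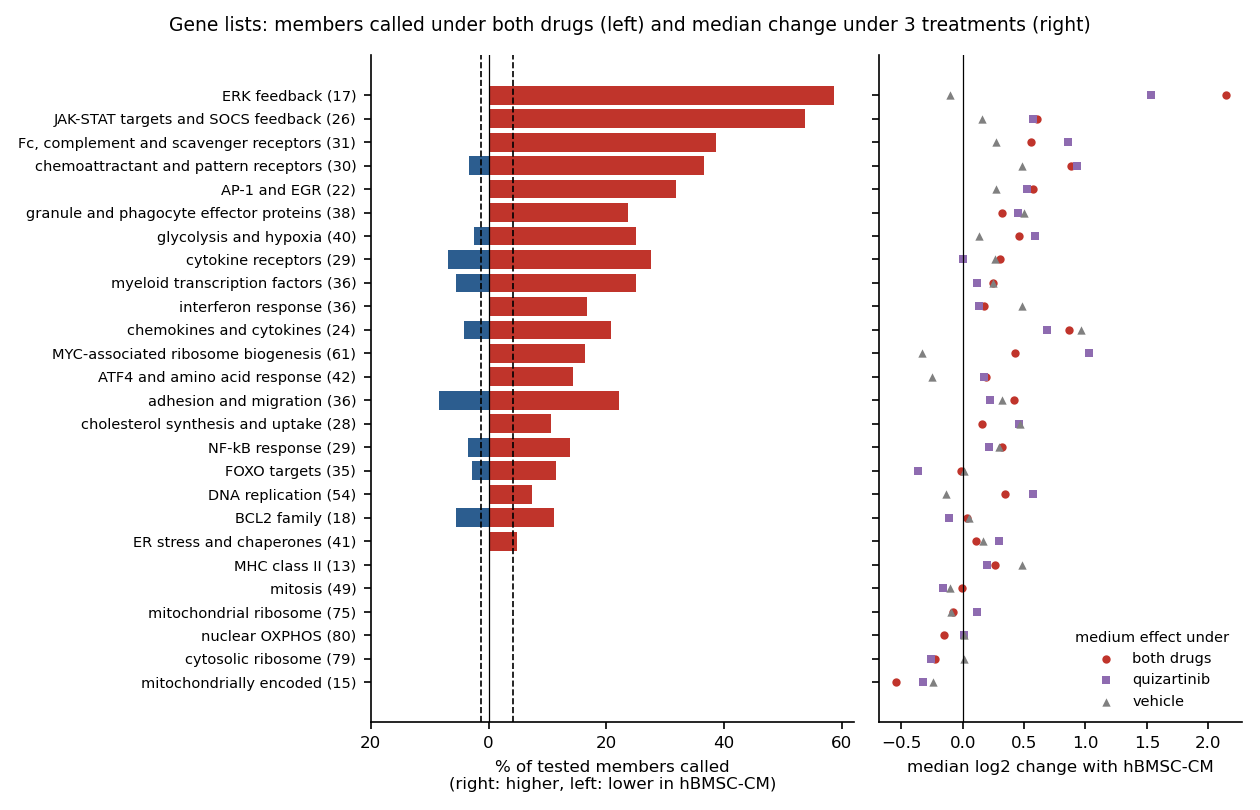
Share of the tested members of 26 gene lists that were called higher or lower in hBMSC-CM under both drugs, in percent, with dashed lines at the shares of all genes (4.11% higher, 1.24% lower), and the median log2 change of each list under both drugs, quizartinib and vehicle. The ERK feedback and JAK-STAT lists had the largest shares called higher, 58.8% and 53.8%, and the OXPHOS, ribosome, mitosis and MHC class II lists had none.

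Cytokine receptors included both rises and the fall of the drug target. Of 29 tested 8 rose (27.6%, against 4.11% of all genes) and 2 fell (6.90%, against 1.24%). Without RPMI replicate 3, where IL1RAP, IL10RA and IFNGR1 lost their calls, 5 were called higher. FLT3 (ENSG00000122025, chromosome 13, 28003274 to 28100592, minus strand) was at 72.0, 79.5 and 39.1 CPM in hBMSC-CM and at 264, 256 and 164 CPM in RPMI, a 3.59-fold lower level (log2 change −1.84, SE 0.27, edgeR adjusted p 7.07e-06). Replicate 3 was lowest in each medium, and the media did not overlap. The interleukin 6 receptor gene IL6R fell by 0.73, a call lost without RPMI replicate 1 or hBMSC-CM replicate 3. The interleukin 7 receptor gene IL7R was at 8.43, 6.88 and 8.23 CPM in hBMSC-CM and at 0.691, 0 and 0 CPM in RPMI. Its fitted change of 5.11 (SE 0.72, edgeR adjusted p 5.20e-06) grew to 10.9 without RPMI replicate 1, the RPMI library that had counts. IL15RA, the interleukin 15 receptor alpha chain, rose by 4.05 and IL4R by 1.58. CSF2RB, the shared beta chain of the GM-CSF and interleukin 3 receptors, had 10.7, 11.6 and 7.71 CPM against 8.67, 8.71 and 4.93 CPM and did not pass the test (log2 change 0.43, edgeR adjusted p 0.854).

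Of 24 chemokines and cytokines that could be tested 5 rose (20.8%, against 4.11% of all genes) and 1 fell, with a median of 0.87, and with a replicate block 9 were called higher. Without RPMI replicate 1 there were 3. The growth factor gene HBEGF was at 64.7, 63.0 and 100 CPM against 7.76, 11.3 and 13.3 CPM (log2 change 2.81, SE 0.43, edgeR adjusted p 1.66e-05). CCL2, a monocyte chemokine, was at 1.53, 1.28 and 1.91 CPM in hBMSC-CM and had no count in RPMI, so it was at least 13.6-fold higher when RPMI is set to a floor of 3 counts per library. The chemokine CXCL16 rose by 1.92, a call lost without RPMI replicate 1, and OSM and the angiogenic factor VEGFA (0.96, lost without RPMI replicate 1 or 3 or hBMSC-CM replicate 2) were the other rises. CCL23 fell by 1.23, a call lost without RPMI replicate 3 or hBMSC-CM replicate 1. Of 29 NF-kB response genes 4 rose (13.8%) and 1 fell (median 0.32), and 7 were called higher with a replicate block. BCL3, an IkB family coactivator, went from 38.9, 40.1 and 68.5 CPM to 253, 214 and 392 CPM (log2 change 2.54, SE 0.32, edgeR adjusted p 5.83e-07). ICAM1, an adhesion ligand, went from 1.60, 3.01 and 2.12 CPM to 16.3, 22.6 and 19.3 CPM (log2 change 3.11, SE 0.33, edgeR adjusted p 1.37e-08). The urokinase gene PLAU rose by 0.94, BCL2A1 also rose, and CD83 fell by 1.26. Of 36 interferon response genes 6 rose (16.7%) and 0 fell (median 0.18), among them the scramblase gene PLSCR1 by 2.34, MX2 by 1.29 and TRIM25 by 0.97. Of 13 genes of MHC class II presentation none was called by edgeR, against 5.36% of all genes. CD74, the invariant chain, had 381, 502 and 528 CPM in hBMSC-CM against 611, 691 and 743 CPM in RPMI and an adjusted p of 0.663, which was 0.0247 with a replicate block within each fraction and 0.0174 to 0.885 over all alternatives.

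Of 36 adhesion and migration genes 8 rose (22.2%, against 4.11% of all genes) and 3 fell (8.33%, against 1.24%), with a median of 0.42, and 14 were called higher with a replicate block. PLAUR, the urokinase receptor, rose from 33.9, 38.0 and 42.7 CPM to 97.2, 106 and 138 CPM (log2 change 1.57, SE 0.23, edgeR adjusted p 7.62e-06). THBS1, which encodes thrombospondin, was at 12.5, 8.21 and 6.85 CPM in hBMSC-CM and had no count in any RPMI combo library, which makes it at least 72.4-fold higher by the same floor. The integrin alpha L gene ITGAL fell, from 790, 802 and 816 CPM to 240, 406 and 314 CPM (log2 change −1.32, SE 0.21, edgeR adjusted p 2.78e-05). The cytoskeletal gene DPYSL3 was at 2.82, 4.11 and 2.11 CPM in hBMSC-CM and at 33.3, 20.2 and 13.8 CPM in RPMI. It had the largest fall by the naming rule (log2 change −2.89, SE 0.46, edgeR adjusted p 3.42e-05). NREP, the fall with the smallest standard error among the 10, was at 50.3, 56.1 and 53.1 CPM against 190, 199 and 184 CPM (log2 change −1.84, SE 0.18). PLD4, an endolysosomal nuclease, fell by 1.89. Of the 10 largest falls, MYBPH lost its call without RPMI replicate 2 or 3 or hBMSC-CM replicate 1 or 3, and SHANK1 without hBMSC-CM replicate 2 or 3 or RPMI replicate 1, where its log2 change was −1.15. CLSTN2, a cadherin superfamily gene, was the remaining adhesion gene that fell, by 1.27, and lost its call without RPMI replicate 1 or 2 or hBMSC-CM replicate 3.

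Of 18 tested genes of the BCL2 family, which control cell survival, 2 rose (11.1%, against 4.11% of all genes) and 1 fell (5.56%, against 1.24%), and the median was 0.03. MCL1, which encodes an antiapoptotic protein, was at 192, 194 and 183 CPM in hBMSC-CM and at 112, 132 and 115 CPM in RPMI (a log2 change of 0.66 with SE 0.16, edgeR adjusted p 0.00748). The call was lost without RPMI replicate 1 and with no filter on low counts, and over all alternatives the adjusted p was 8.03e-05 to 0.176. BCL2A1, also antiapoptotic, rose from 1.92, 2.08 and 2.06 CPM to 11, 14 and 18.2 CPM (log2 change 2.83, SE 0.51, edgeR adjusted p 0.000224). BCL2 itself fell, from 56.6, 52.3 and 49.9 CPM to 30.1, 30.1 and 23.5 CPM (log2 change −0.92, SE 0.16, edgeR adjusted p 0.000175). BCL2L1 was at 23.3, 20 and 21.7 CPM against 21.7, 20.3 and 20.3 CPM, and its values overlapped. The proapoptotic gene BMF was at 233, 250 and 241 CPM against 458, 475 and 505 CPM and did not pass the test (log2 change −0.99, edgeR adjusted p 0.0586). Its values did not overlap, and with a replicate block its adjusted p was 0.00279 (0.000193 to 0.18 over all alternatives). Of 35 FOXO targets 4 rose (11.4%; IL7R, BCL6, FOXO1 by 1.01 and the cell cycle inhibitor gene CDKN2D by 0.89) and 1, SESN1, fell by 0.87. FOXO1 was called without RPMI replicate 1 or hBMSC-CM replicate 3 but not without any other library, and CDKN2D without RPMI replicate 3 or hBMSC-CM replicate 2 only. With a replicate block 5 FOXO targets were called lower, against 279 of all 12939 genes.

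Of 40 glycolysis and hypoxia genes 10 rose (25%, against 4.11% of all genes) and 1 fell (2.50%, against 1.24%), with a median of 0.46. The 10 included VEGFA and ANKRD37, which are known as hypoxia targets and not as glycolysis genes. ANKRD37 (log2 change 1.68) lost its call without RPMI replicate 1 or 3 or hBMSC-CM replicate 3 and with a replicate block, and LDHA (0.81) without RPMI replicate 2 or 3 or hBMSC-CM replicate 1 or 2. PFKFB3, an activator of glycolysis, went from 40.7, 67.5 and 55.7 CPM to 187, 209 and 227 CPM (log2 change 1.93, SE 0.21, edgeR adjusted p 2.28e-08). The glucose transporter gene SLC2A1 went from 20.8, 20.9 and 17.1 CPM to 53.3, 57.5 and 45.8 CPM (log2 change 1.41, SE 0.21, edgeR adjusted p 1.20e-05). SLC2A3 was at 120, 106 and 171 CPM against 8.01, 7.21 and 14.3 CPM, whereas SLC2A14 fell by 1.21, a call lost without hBMSC-CM replicate 1 or 3. These 2 genes are near-identical copies, so how reads were divided between them is uncertain. Of 28 cholesterol genes 3 rose (10.7%), among them SREBF1 by 1.23 and the exporter gene ABCA1 by 1.72, the latter a call lost without RPMI replicate 3. Of 41 ER stress and chaperone genes 2 rose, XBP1 and SDF2L1, a share of 4.88%, close to the 4.11% of all genes, and the change of SDF2L1 (1.10) was called without hBMSC-CM replicate 1 but lost its call without any other single library. XBP1, a transcription factor of the unfolded protein response, went from 28.2, 37.9 and 27.6 CPM to 175, 210 and 186 CPM (log2 change 2.61, SE 0.42, edgeR adjusted p 4.31e-05). With a replicate block the chaperone genes HSPA5 and MANF also passed, at adjusted p of 0.0381 and 0.00577 against 0.0737 and 0.143 without it (over all alternatives 0.00337 to 0.561 and 0.0023 to 0.502).

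Genes of oxidative phosphorylation and of the ribosome were not among the called genes. Of 80 nuclear OXPHOS genes, 75 mitochondrial ribosome genes, 79 cytosolic ribosome genes and 15 mitochondrially encoded genes 0 passed the test in input RNA under both drugs, where 5.36% of all genes did. Their median log2 changes were −0.15, −0.08, −0.23 and −0.54, against −0.03 over all genes. In the same order, 13, 29, 5 and 1 members had a positive change. Values did not overlap, with hBMSC-CM lower, for 8, 6, 14 and 1 members, against 10.1% of all genes. With hBMSC-CM higher they did not overlap for 1, 2, 0 and 0, against 11.3% of all genes. ATP5MC1, an ATP synthase subunit, had 13, 17.1 and 22.7 CPM in hBMSC-CM and 16, 22 and 20.1 CPM in RPMI. CYCS, cytochrome c, had 27.8, 39.4 and 29.9 CPM against 21, 34.9 and 18.5 CPM, and IDH3A, a Krebs cycle enzyme subunit, 19.4, 19.9 and 22.3 CPM against 24.0, 24.2 and 18.1 CPM. The values of all 3 genes overlapped between media. The kinase genes MTOR and ATM also overlapped, MTOR with 60.7, 75.0 and 50.2 CPM against 61.7, 58.1 and 56.3 CPM and ATM with 68.0, 71.2 and 48.6 CPM against 46.8, 55.3 and 50 CPM. The edgeR adjusted p was 0.838 to 0.993 for these 5 genes. MRPL17, of the mitochondrial ribosome, had 26.0, 18.5 and 27.1 CPM against 15.2, 12.4 and 14.9 CPM and an adjusted p of 0.062, which was 0.00426 with a replicate block and 0.00183 to 0.28 over all alternatives.

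**Figure D4:**
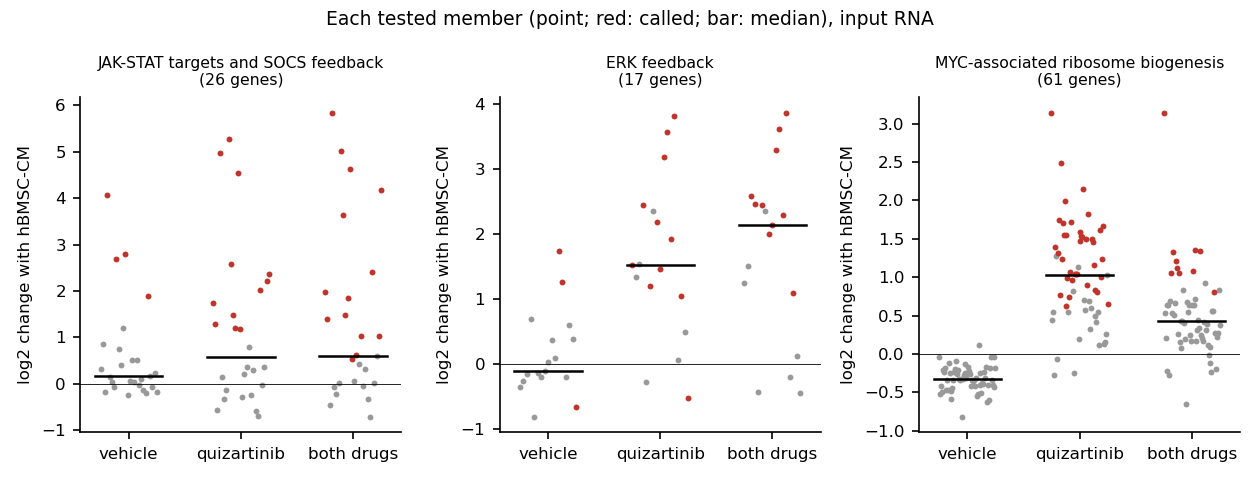
Log2 change between hBMSC-CM and RPMI of each tested member of the JAK-STAT (26), ERK feedback (17) and MYC-associated ribosome biogenesis (61) lists under vehicle, quizartinib and both drugs. Each point is a gene, red where it was called, and bars are medians. The median of the MYC-associated list was −0.33 under vehicle, 1.03 under quizartinib and 0.43 under both drugs, and that of ERK feedback genes −0.11, 1.53 and 2.14.

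The same change of medium was then set beside its size under quizartinib alone, where 1056 genes were called (8.16%, with 6.11% higher and 2.05% lower), and under vehicle, where 195 were (1.51%, with 1.30% higher and 0.209% lower). The 3 comparisons share no library. Of the 693 genes called under both drugs 566 were called in the same direction under quizartinib, 81.7% of the former and 53.6% of the latter. Under vehicle 150 were, 21.6% of the genes called under both drugs and 76.9% of those called under vehicle. No shared gene had opposite signs. All 3 treatments shared 138 genes. A group of 428 was called with both drugs and with quizartinib but not with vehicle, and 115 were called under both drugs alone, of which 75 had an unadjusted p under 0.05 in the same direction under quizartinib. Genes that rose under both drugs had a median log2 change of 1.39 there, 1.34 under quizartinib and 0.53 under vehicle. Those that fell had medians of −1.12, −1.09 and −0.53. These genes were chosen by their test under both drugs, which favours larger changes there, so the medians are not an even comparison.

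**Figure D5:**
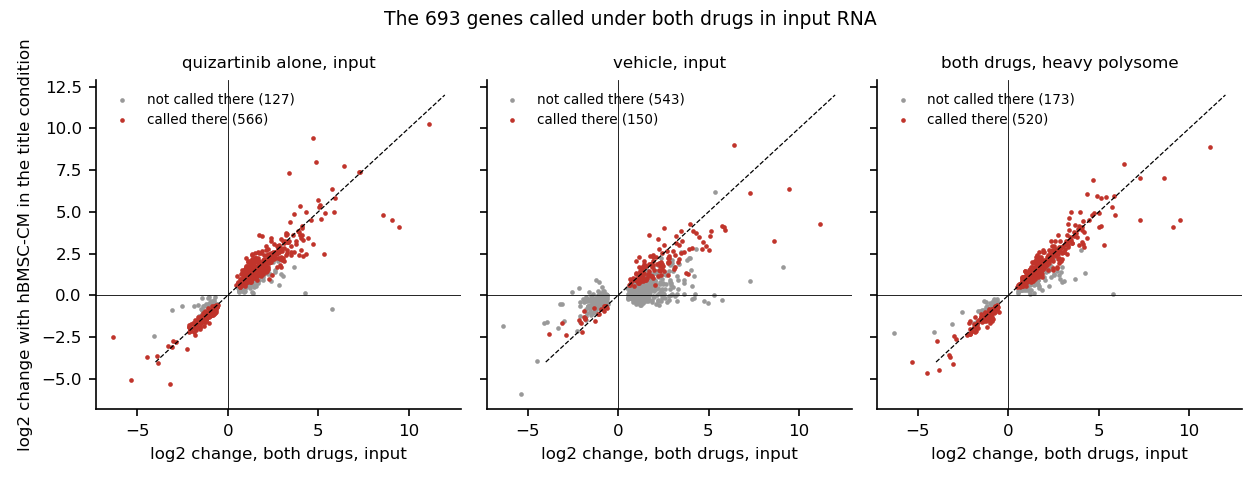
Log2 change between hBMSC-CM and RPMI of the 693 genes called under both drugs in input RNA (horizontal axis) against their change under quizartinib, under vehicle and in heavy polysome RNA under both drugs (vertical axes). The dashed line marks equal change, and red points were also called in the comparison on the vertical axis, 566, 150 and 520 genes. The genes were chosen by their test on the horizontal axis, which favours larger changes there.

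When the difference itself was tested, 0 genes differed between both drugs and quizartinib by edgeR. At an unadjusted p under 0.05 there were 218 (1.68%), DESeq2 and limma voom also called 0, and 4 were called with no filter on low counts. The share of 1.68% is smaller than a threshold of 0.05 gives by itself when no gene differs, so 0 calls do not show equal effects. With a replicate block within each fraction 558 of 12939 genes had an unadjusted p under 0.05, and 1 was called. Against vehicle, 72 genes (0.556%) differed, 70 with a more positive medium effect under both drugs and 2 (0.0155%) with a more negative one, SLC2A14 and HRC. MYC changed by −0.04 under vehicle, and the difference of 3.18 passed the test (SE 0.43, edgeR adjusted p 2.44e-05). ETV5 changed by 0.09 under vehicle (difference 3.54, SE 0.56, edgeR adjusted p 0.000368) and CISH by 0.32 (difference 1.65, SE 0.22, edgeR adjusted p 2.36e-05). SLC7A5 changed by −0.56 under vehicle, and its difference of 2.79 had an edgeR adjusted p of 7.55e-06. SOCS3 and PIM1 were already higher under vehicle, by 4.07 and 2.69, and their difference still passed (1.77 and 2.33, edgeR adjusted p 0.00418 and 4.36e-05). FPR1 rose by 6.11 under vehicle, from 0.41 ± 0.373 to 28.4 ± 10.7 CPM (SD, n = 3 each). Its difference of 1.2 did not pass the test (SE 0.65, edgeR adjusted p 0.925). By list, 5 of 26 JAK-STAT genes, 6 of 17 ERK feedback genes and 3 of 22 AP-1 and EGR genes had a larger medium effect under both drugs than under vehicle, against 0.541% of all genes. Of the 30 chemoattractant receptors and the 38 granule genes 0 did. At a share of 0.541%, lists of this size seldom hold a call, so these counts do not set the lists apart. The medians of their differences were 0.08 and −0.15.

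Heavy polysome RNA of the same combo cultures gave 772 called genes (5.97%), 505 higher (3.90%) and 267 lower (2.06%). Of the 693 input genes 520 were also called there in the same direction (75.0%, and 67.4% of the polysome calls), with median log2 changes of 1.25 for the higher and −1.14 for the lower input genes. Since both fractions came from the same cultures, these counts are no independent support. SOCS3 spanned 296 to 426 CPM in hBMSC-CM polysomes and 5.26 to 6.76 CPM in RPMI polysomes, and MYC 468 to 945 CPM against 59.0 to 132 CPM, without overlap. JAK-STAT genes were called higher in 13 and lower in 1 of 26 cases in polysomes, and ERK feedback genes in 9 and 1 of 17. By edgeR 0 genes changed in polysome RNA relative to input. At an unadjusted p under 0.05 there were 198 (1.53%), DESeq2 called 2 (CCL22 and VMP1), limma voom called 0, and 6 were called with no filter on low counts. Here too the share of 1.53% is smaller than the threshold gives by itself, so 0 calls do not show equal changes in the 2 fractions. With a replicate block within each fraction 726 of 12939 genes had an unadjusted p under 0.05, and 1 was called. The medians of the change in polysome RNA relative to input were 0.33 for nuclear OXPHOS genes, 0.51 for cytosolic ribosome genes and 0.83 for mitochondrially encoded genes. Over all genes the median was −0.03, and 0 members were called. Mitochondrially encoded transcripts took 0.185% to 0.506% of counts in the combo polysome libraries, against 3.93% to 10.2% in combo input. Whether their values there reflect loading with ribosomes was not tested.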

How the data were processed

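RNA-seq read counts of 42 MOLM-13 libraries were used, 3 in each of 14 groups. Per the study's methods the authors trimmed reads of poly(A)-selected libraries with BBDuk, aligned them to hg38 (Ensembl release 96) and counted them per gene with STAR 2.6.0a. The deposited values are raw counts without normalization, and whether counting used strand is not stated. Of 58884 rows 25133 held no count, rows sharing 1 of 150 names were summed, and genes with a mean of at least 1 count and 1 CPM were kept (12939 genes, 99.8% of counts). No column was left unused, 0 rows named no gene, and libraries held 19.4 to 38.8 M counts. Floors cover counting error only.

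All libraries entered 1 robust quasi-likelihood fit (edgeR 4.0.16, R 4.3.3) with a mean for each of the 14 groups and TMM scaling, without a block. A gene was called when its p, adjusted by Benjamini-Hochberg, was under 0.05. The SE of a log2 change is its size divided by the square root of the test's F. The 7 comparisons were the medium effect under both drugs in input, in polysome and in polysome relative to input, under quizartinib, under vehicle, and the differences of both drugs from quizartinib and from vehicle. Same-numbered combo libraries of the 2 media deviated together (r across genes 0.496, 0.331 and 0.511 in input, and 0.31, 0.674 and 0.56 in polysome), so replicate numbers pair them across media, and blocked fits were run as alternatives. Between input and polysome of the same number, r was weaker, 0.287, −0.0438 and 0.207 in hBMSC-CM and 0.0708, 0.127 and 0.178 in RPMI. The other alternatives were DESeq2 1.42.0, limma voom (limma 3.58.1), RLE factors, library size only, 2 other filters, fits on fewer libraries and each culture left out. Positions are from GENCODE v44 on GRCh38, and promoters from RefSeq on GRCh38.p14. Scripts were tested on simulated data.

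The members, the 26 gene lists (984 of 1162 entries tested) and the rules were chosen with earlier results of these data known. Named genes were the 14 largest rises and 10 largest falls (adjusted p under 0.05, mean of at least 10 CPM over the 6 libraries, no overlap between media), 22 fixed genes, up to 4 members per list with the smallest adjusted p, and the 6 largest called differences. List members named beyond this rule (among them PIM3, JAK3, BATF3, STAT3, LRP8, IRF1, CCND2, CXCR2, IL6R, CCL23, IRF5, IRF8, SLC2A14, ANKRD37, LDHA and HRC) were chosen after their values were seen. Some genes that the rule names are not reported here.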

Additional observations from a re-analysis of the deposited data

Results flagged for a closer look

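The medium effect differed between both drugs and vehicle in input RNA for 72 genes, by a contrast of the 2 effects in edgeR's quasi-likelihood fit, with p-values adjusted by Benjamini-Hochberg over all genes. In the following, a value is the medium effect under both drugs minus that under vehicle, on the log2 scale, and each passed this test at an adjusted p under 0.05. Among kinase and cytokine feedback genes the differences were 1.77 for SOCS3, 2.33 for PIM1, 2.89 for PIM2 and 1.65 for CISH. Genes of the ERK cascade and early response differed by 3.50 (EGR1), 2.61 (IER3), 3.54 (ETV5), 2.58 (SPRY2), 2.12 (SPRED2), 3.24 (FOSL1) and 1.49 (FOS). Growth and ribosome genes differed by 3.18 (MYC), 1.25 (BYSL) and 1.78 (DDX21). Transporter genes differed by 2.79 (SLC7A5), 2.17 (SLC7A1), 2.41 (SLC2A3, which has a near-identical copy) and 2.55 (SLC29A1, a nucleoside transporter). The remaining named genes were HPDL (3.11), the receptor gene SIRPB1 (1.40), the ubiquitin ligase gene TRIM25 (0.90) and THBS1, whose fitted difference of 6.90 is no bound, since it had no count in RPMI with both drugs.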

How the results depend on the processing

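The count of genes called for the medium effect under both drugs in input (693) was 510 to 1002 under DESeq2, limma voom, other scaling, other filters, a replicate block and only the compared libraries, and 1158 and 1372 with input libraries alone and with a block within each fraction. Of the 693 genes 692 were called with the block, 519 with only the compared libraries and 497 to 549 when a culture was left out. In polysomes (772) it was 484 with polysome libraries alone, 276 with only the compared libraries, 1216 with the block and 1947 with the block within each fraction. For polysome relative to input (0) it was 2 by DESeq2, 6 with no filter and 1 with the block within each fraction (VMP1). Under quizartinib (1056) it was 2018 with input libraries alone and 2275 with the block within each fraction. Under vehicle (195) it was 293 by DESeq2, 367 with input libraries alone, 105 with only the compared libraries, 373 with the block and 585 with the block within each fraction. For both drugs against quizartinib (0) it was 4 with no filter and 1 with the block within each fraction (SLC39A14). For both drugs against vehicle (72) it was 128 by DESeq2, 248 with input libraries alone, 120 with no filter, 178 with the block and 378 with the block within each fraction. The cause of these moves was not tested.

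With 1 culture left out the counts were 526 to 587, 510 to 788, 0 to 2, 703 to 932, 109 to 171, 0 to 1 and 42 to 79, in the order above. The polysome count was 510 without RPMI combo replicate 1, the quizartinib count 703 without hBMSC-CM quizartinib replicate 3, the vehicle count 109 without RPMI vehicle replicate 1, and the difference from vehicle 42 without hBMSC-CM vehicle replicate 2 and 46 without RPMI vehicle replicate 1. Of the uncalled genes 3 changed sign without a combo culture: ATP5MC1 ranged from −0.365 to 0.0476 (hBMSC-CM replicate 1), MTOR from −0.0829 (hBMSC-CM replicate 2) to 0.208 and HLA-DMA from −0.00174 (hBMSC-CM replicate 3) to 0.919. Besides the calls given above, a replicate block added those of CD86, MT-RNR1 and MSMO1 (within each fraction only) and changed no other call of a gene named by the rule. With a mean of at least 10 CPM required, fewer genes were tested and lists kept fewer calls, 6 higher in each of the ERK feedback, chemoattractant and Fc receptor lists. The median of all genes stayed within 0.034 of 0 on the log2 scale under every scaling. With 3 libraries per group, low genes and changes well under 2-fold remained the least certain, and without a spike-in a shift shared by all messages is not visible.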
